A study of Mus musculus with 4 samples.

Results

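The 33 genes described here act in the synthesis and handling of cholesterol and fatty acids. They were chosen by name, as enzymes of the mevalonate and sterol pathways, parts of the SREBP and LXR regulatory systems, cholesterol carriers, and enzymes of fatty acid synthesis. All 33 were found among the 21827 genes of the expression tables, and all had a usable value in every library. The tables hold RNA-seq of mouse retina at postnatal day 12 (P12), sorted by the surface protein Cd73, which marks rod photoreceptors and their precursors. The fractions with Cd73 (Cd73P) and without it (Cd73N) came from mice labelled wildtype (WT) and from mice labelled Ezh2-cKO, all on the slc:ICR background. Ezh2-cKO mice carried floxed Ezh2 with Dkk3-Cre, so recombination began in embryonic progenitors of the retina. Ezh2 is the methyltransferase that places the repressive histone mark H3K27me3, and the controls were normal littermates. Neither rd1 nor rd8 was carried by these animals. There were 4 libraries, 1 for each fraction and genotype, so no difference has a replicate check and no p-value is given. The number of retinas behind each P12 library is not given in the sources used here.

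Cells build cholesterol from acetyl-CoA. The mevalonate arm makes isoprenoid units and farnesyl diphosphate, and the sterol arm turns squalene into lanosterol and then cholesterol. SREBP transcription factors are held in the endoplasmic reticulum by INSIG proteins when sterols are plentiful. When sterols are scarce, SCAP escorts them to the Golgi, where they are cut free to turn on genes of synthesis and uptake. LXR nuclear receptors sense oxysterols and turn on export genes such as Abca1, Abcg1 and Apoe. In the retina Müller glia make much of the local ApoE, while rods renew their lipid-rich outer segments daily.

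Levels are given in FPKM, sequenced fragments scaled by exon length and by library depth, a unit that allows levels of different genes to be set side by side. A difference between libraries is given as a log2 ratio of FPKM + 1. A gene was called higher or lower when that ratio passed 1.5-fold, a log2 ratio of 0.58. Each standard error (SE) comes from the deposited confidence bounds and covers counting error only, not the spread between animals. Apart from calls and thresholds, fold values given for genes and for sums are FPKM folds, taken without the added 1. At low levels an FPKM fold is thus larger than the log2 ratio beside it implies.

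Nt5e, which encodes Cd73, had 125 and 123 FPKM in the Cd73P libraries but only 0.844 and 0.609 in Cd73N. All 11 comparable rod markers were higher in WT Cd73P than in WT Cd73N. Ezh2 was at 14.1 FPKM in Cd73N WT and 15.9 in the Cd73N library labelled Ezh2-cKO, which goes against that label. In Cd73P it was at 5.38 FPKM in WT and 3.45 in the library labelled Ezh2-cKO. These values sum over the whole gene, so transcripts that lack only the floxed part still count. The libraries labelled Ezh2-cKO also differed from WT in 4 Y-linked genes, whose summed level was 26.8 and 27.9 FPKM in the WT libraries and 0.716 and 0.496 FPKM in the others. Genotype and the sexes of the mice cannot be told apart here. Read depth relative to Cd73N WT ranged up to 1.195 (Cd73N labelled Ezh2-cKO).

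Between genotypes, few of the 33 genes differed by 1.5-fold, and those that did were mostly regulators and lipid carriers rather than enzymes of the pathway. In Cd73N, Apoe, Srebf1 and Srebf2 were higher in the library labelled Ezh2-cKO and none was lower. Those 3 of 33 are 9.09%, against 7.18% of all genes and 11.4% of the genes with at least 1 FPKM in any library, so the share was near the background. For lower calls the background was 1.71% and 2.81%. In Cd73P, Apoe and Pmvk were higher, or 6.06% of the members against a background of 2.26% and 3.64%. Insig1, Abca1, Stard4 and Elovl6 were lower in Cd73P, or 12.1% against 2.38% and 3.88%. These 4 were below 10 FPKM in both Cd73P libraries, and their calls were lost with a pseudocount of 5. The median log2 ratio of the members was -0.02 in Cd73N and -0.15 in Cd73P, beside -0.03 and -0.04 over all expressed genes. Apoe alone was called in the same direction in both fractions. As these are bulk fractions, fewer cells of a type and less RNA per cell cannot be told apart.

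**Figure D1:**
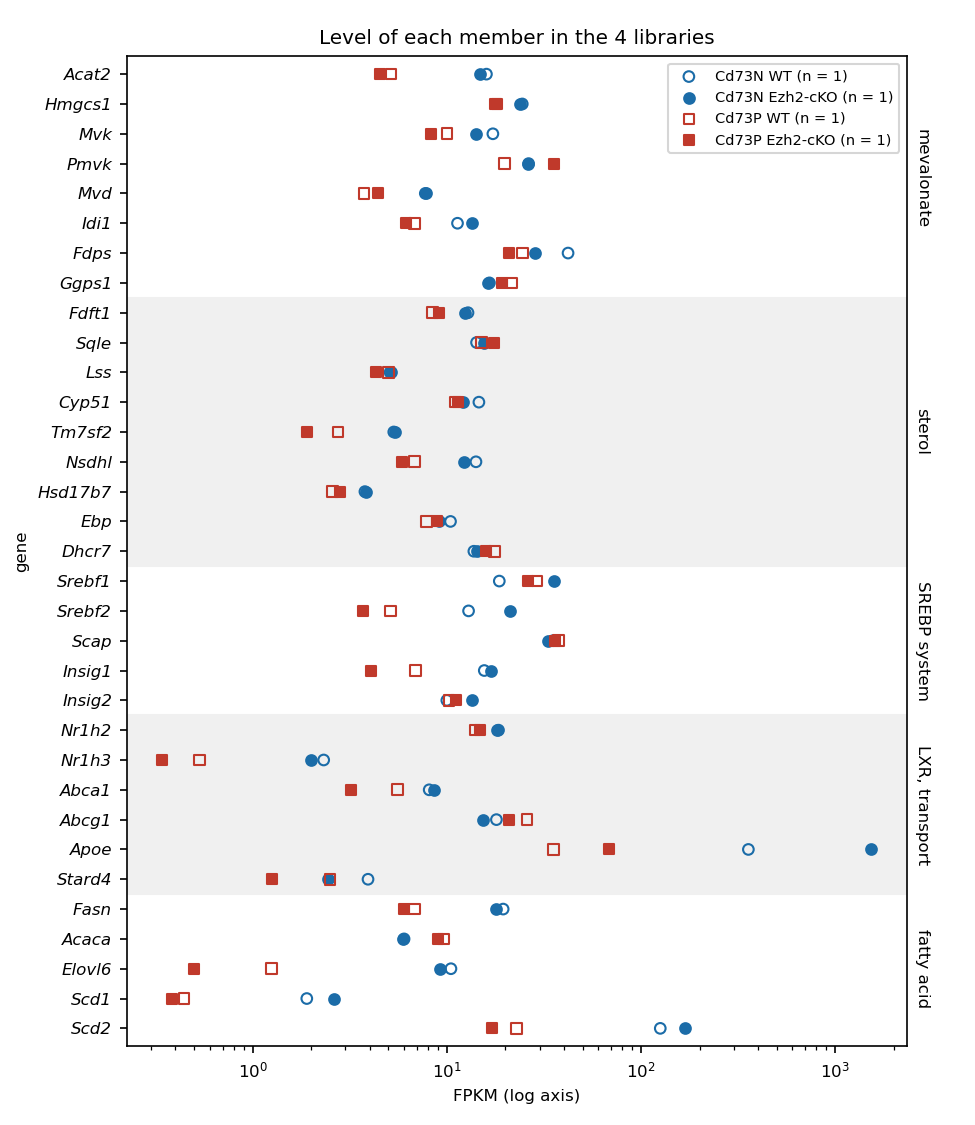
Level of each of the 33 genes (FPKM, log axis) in the 4 libraries, grouped by role, with circles for Cd73N, squares for Cd73P, open symbols for WT and filled symbols for the libraries labelled Ezh2-cKO; each symbol is 1 library. Most enzymes sit to the left in Cd73P, and Apoe spans 35.3 to 1532 FPKM.

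**Figure D2:**
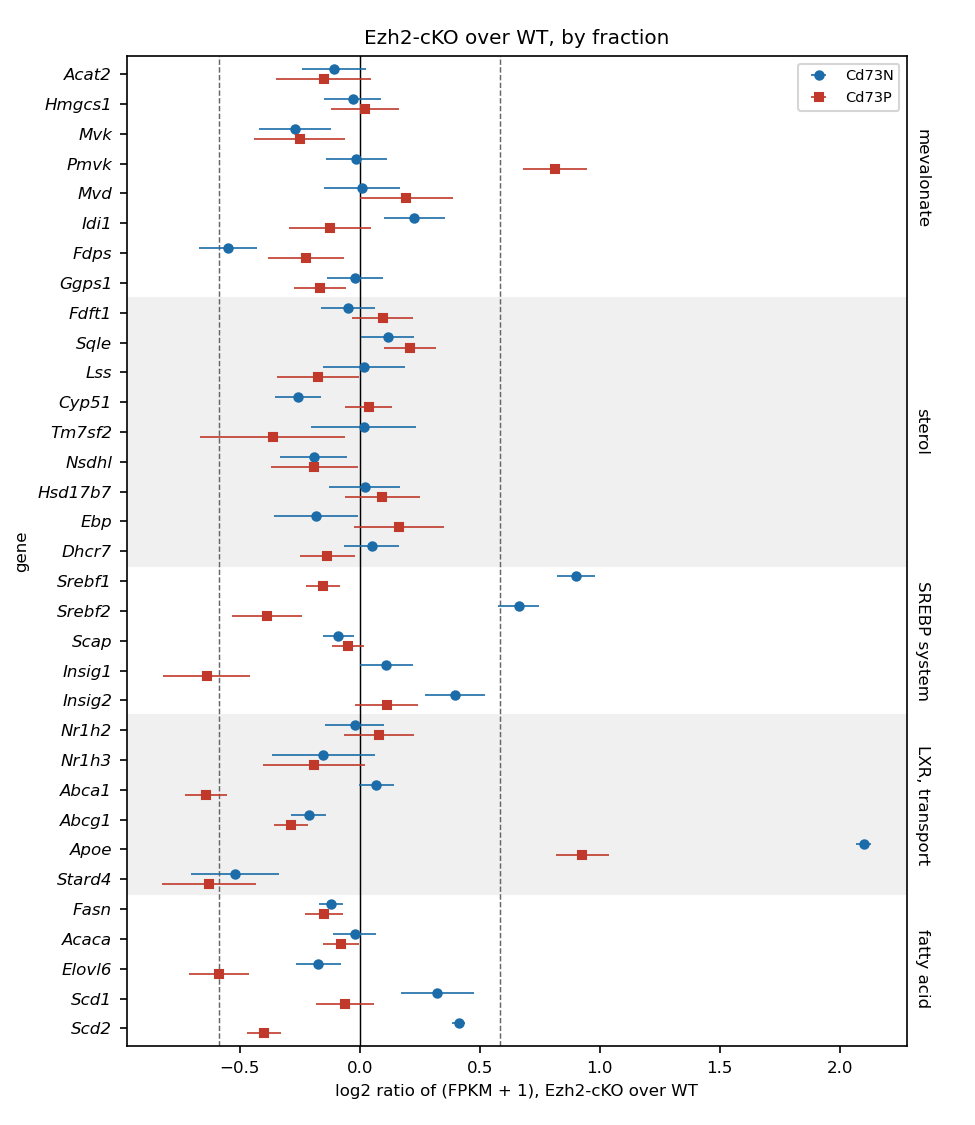
Log2 ratio of FPKM + 1, labelled Ezh2-cKO over WT, for each gene in Cd73N (circles) and Cd73P (squares), with bars of the 95% counting interval and dashed lines at 1.5-fold; each point compares 1 library with 1 library. Apoe, Srebf1 and Srebf2 lie to the right of the line in Cd73N, while Insig1, Abca1, Stard4 and Elovl6 lie at or past the left line in Cd73P.

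The mevalonate arm was nearly even between genotypes, with 7 of its 8 enzymes within 1.5-fold in both fractions. Levels are listed in the order Cd73N WT, Cd73N labelled Ezh2-cKO, Cd73P WT and Cd73P labelled Ezh2-cKO, here and in the paragraphs that follow. Acat2, a thiolase that joins acetyl-CoA units, was at 16.0, 14.8, 5.16 and 4.55 FPKM. Hmgcs1, which makes HMG-CoA, was at 24.4, 23.9, 17.8 and 18.1 FPKM. Mvk, the first of the kinases that phosphorylate mevalonate, was at 17.3, 14.1, 10.01 and 8.25 FPKM. All 3 had close levels in the pair of genotypes and lower levels in both Cd73P libraries. Pmvk, the next kinase, was at 26.3, 26.1, 19.8 and 35.5 FPKM. Its Cd73P library labelled Ezh2-cKO was the highest of the 4, and the log2 ratio there was 0.81 (SE 0.068), against -0.01 (SE 0.064) in Cd73N. Idi1, which isomerises isopentenyl diphosphate, was at 11.3, 13.5, 6.83 and 6.18 FPKM. Fdps, the farnesyl diphosphate synthase at the branch point to sterols, was at 42.1, 28.4, 24.6 and 20.9 FPKM. It was the most abundant of the 17 mevalonate and sterol enzymes in Cd73N, and its log2 ratio of -0.55 (SE 0.061) there was just inside the threshold. Ggps1, which makes geranylgeranyl diphosphate for protein prenylation, was at 16.6, 16.3, 21.7 and 19.2 FPKM, higher in both Cd73P libraries than in either Cd73N library. Mvd, the decarboxylase that ends the mevalonate steps, stayed under 10 FPKM, between 3.75 and 7.79.

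None of the 9 enzymes of the sterol arm reached 1.5-fold between genotypes in either fraction. Their Cd73N log2 ratios lay between -0.26 and 0.12 and their Cd73P log2 ratios between -0.36 and 0.21, with counting SEs up to 0.15. Fdft1, the squalene synthase, was at 12.8, 12.4, 8.45 and 9.10 FPKM. Sqle, the squalene epoxidase and a rate-limiting step, was at 14.2, 15.5, 15.1 and 17.6 FPKM. Cyp51, which demethylates lanosterol, was at 14.6, 12.1, 11.1 and 11.4 FPKM. Fdft1 and Cyp51 were lower in both Cd73P libraries than in either Cd73N library, while the fractions overlapped for Sqle. Nsdhl, a decarboxylating sterol dehydrogenase, was at 14.1, 12.2, 6.81 and 5.85 FPKM. Ebp, a sterol isomerase, was at 10.4, 9.08, 7.83 and 8.89 FPKM. Dhcr7, a reductase at the end of cholesterol synthesis, was at 13.8, 14.3, 17.6 and 15.9 FPKM and was the only sterol enzyme besides Sqle whose highest level was in a Cd73P library. Nsdhl and Ebp are X-linked, and their log2 ratios between genotypes lay between -0.19 and 0.16. The other 3 enzymes, Lss, Tm7sf2 and Hsd17b7, stayed below 10 FPKM in every library. Lss, the lanosterol synthase, ranged from 4.32 to 5.17 FPKM, Tm7sf2, a sterol reductase, from 1.91 to 5.40 and Hsd17b7, a keto-steroid reductase, from 2.57 to 3.86. Over the 17 mevalonate and sterol enzymes the summed level was 255.97 and 234.8 FPKM in Cd73N WT and labelled Ezh2-cKO, and 187 and 195 FPKM in Cd73P. Without Pmvk the sums were 229.6 and 208.8 FPKM in Cd73N and 167 and 159 FPKM in Cd73P, so the higher Cd73P sum rested on Pmvk. In all, 16 of the 17 stayed within 1.5-fold between genotypes in both fractions.

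The sequence before the transcription start was set beside these values, since SREBP binds sterol regulatory elements together with the factors NF-Y and Sp1. RefSeq promoters (GRCm38.p6) were matched for 26 of the 33 members, and the 250 bases before each start were searched on both strands. The element TCACNCCAC was found in 1 of the 26, Hmgcs1, at 137 bases before the start, and in 1.22% of all 27025 genes with a promoter. The NF-Y box CCAAT was in 13 of 14 matched mevalonate and sterol enzymes (92.9%), in 5 of 12 other members (41.7%) and in 37.5% of all genes, counting any listed start of a gene. The Sp1 box GGGCGG was in 12 of the 14 enzymes (85.7%), 6 of the 12 others and 35.4% of all genes. These matches describe letters in a window and not bound sites. The following are the 250 bases before the start of Hmgcs1, which holds the element, and of 5 members called between genotypes, with TCACNCCAC and CCAAT in capitals (CCAAT reads ATTGG where it lies on the other strand). The start used is the one nearest in span to the gene of the tables.
Hmgcs1 (chr13:119690101-119690350, plus strand): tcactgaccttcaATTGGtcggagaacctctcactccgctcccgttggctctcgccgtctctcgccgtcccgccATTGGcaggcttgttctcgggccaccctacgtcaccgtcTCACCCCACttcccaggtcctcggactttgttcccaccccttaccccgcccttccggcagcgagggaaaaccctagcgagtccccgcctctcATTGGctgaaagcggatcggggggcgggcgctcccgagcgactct
Srebf2 (chr15:82147019-82147268, plus strand): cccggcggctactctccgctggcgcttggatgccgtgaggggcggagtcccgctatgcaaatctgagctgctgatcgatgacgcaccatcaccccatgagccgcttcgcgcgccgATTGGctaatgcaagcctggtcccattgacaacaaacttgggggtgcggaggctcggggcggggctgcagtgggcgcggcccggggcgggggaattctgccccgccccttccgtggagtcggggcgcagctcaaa
Insig1 (chr5:28071162-28071411, plus strand): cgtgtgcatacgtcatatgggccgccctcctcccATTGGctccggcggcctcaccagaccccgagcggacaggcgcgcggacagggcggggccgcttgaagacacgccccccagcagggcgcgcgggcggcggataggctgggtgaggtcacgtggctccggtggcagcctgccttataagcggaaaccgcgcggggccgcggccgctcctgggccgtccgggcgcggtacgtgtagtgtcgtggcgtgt
Srebf1 (chr11:60220628-60220877, minus strand): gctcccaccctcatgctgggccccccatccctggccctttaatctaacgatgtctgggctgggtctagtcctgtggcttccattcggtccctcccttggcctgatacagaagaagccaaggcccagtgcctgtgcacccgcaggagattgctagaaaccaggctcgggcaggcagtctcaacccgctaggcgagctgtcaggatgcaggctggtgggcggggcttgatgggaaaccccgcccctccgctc
Apoe (chr7:19699189-19699438, minus strand): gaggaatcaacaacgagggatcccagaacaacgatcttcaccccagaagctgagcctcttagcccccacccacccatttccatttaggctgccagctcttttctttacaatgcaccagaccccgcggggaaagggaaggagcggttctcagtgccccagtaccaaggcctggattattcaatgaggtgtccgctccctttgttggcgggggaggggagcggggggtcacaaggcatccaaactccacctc
Abca1 (chr4:53159896-53160145, minus strand): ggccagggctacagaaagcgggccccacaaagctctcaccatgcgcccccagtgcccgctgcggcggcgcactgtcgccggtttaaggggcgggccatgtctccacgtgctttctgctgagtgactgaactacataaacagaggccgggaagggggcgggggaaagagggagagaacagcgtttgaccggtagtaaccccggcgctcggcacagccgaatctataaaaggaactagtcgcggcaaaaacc
Hmgcs1 has 3 CCAAT boxes in this window, and Srebf2 and Insig1 have 1 each. The windows of Srebf1, Apoe and Abca1 have none (Srebf1 has the box at other listed starts), and that of Apoe also lacks GGGCGG.

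The SREBP genes stood in opposite genotype order in the fractions. Srebf1 (mm9 chr11:60012591-60034106), which encodes the SREBP tied mainly to fatty acid synthesis, was at 18.6, 35.6, 29.1 and 26.1 FPKM. In Cd73N its level was 1.91-fold higher in the library labelled Ezh2-cKO (log2 ratio 0.90, SE 0.041), while in Cd73P the log2 ratio was -0.15 (SE 0.036). Srebf2 (chr15:81977699-82035390), which encodes the SREBP tied mainly to cholesterol synthesis, was at 12.9, 21.1, 5.12 and 3.68 FPKM. Its FPKM fold was 1.63 in Cd73N, a log2 ratio of 0.66 (SE 0.044), and its log2 ratio in Cd73P was -0.39 (SE 0.075). The Cd73N library labelled Ezh2-cKO thus held the highest level of both genes, and the Cd73P library with that label held the lowest level of Srebf2. The call of Srebf2 in Cd73N was lost with a pseudocount of 5, where its log2 ratio was 0.54. Exons of Srebf1 overlap those of Rai1 on the other strand, and Rai1 in Cd73N had 9.76 FPKM in WT and 9.99 in the library labelled Ezh2-cKO.

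Scap, the escort of the SREBPs, was the steadiest of the regulators, at 35.1, 32.99, 37.4 and 36.1 FPKM. Insig1 (chr5:28397952-28405202), the retention factor that is itself an SREBP target, was at 15.6, 16.9, 6.90 and 4.08 FPKM. As an FPKM fold its level in Cd73P was 1.69-fold lower in the library labelled Ezh2-cKO (log2 ratio of FPKM + 1 -0.64, SE 0.092), and in Cd73N the log2 ratio was 0.11 (SE 0.056). Insig2, its paralogue, was at 9.99, 13.5, 10.3 and 11.2 FPKM and stayed within 1.5-fold in both fractions. Insig1 exceeded Insig2 by a ratio of 1.56 and 1.26 in the Cd73N libraries, while in Cd73P the ratio was 0.672 in WT and 0.365 in the library labelled Ezh2-cKO. The balance of Srebf1 to Srebf2 likewise differed more between fractions than between genotypes, at 1.44 and 1.69 in Cd73N and 5.68 and 7.09 in Cd73P. These ratios of FPKM had counting errors of 2.61% to 6.89%. Among cell markers, 6 of 8 bipolar and 5 of 7 cone markers were also lower in the Cd73P library labelled Ezh2-cKO. The share over expressed genes was 3.88%. Other lists went the other way, with 7 of 12 Müller glia markers higher there. The summed bipolar and cone levels went from 507 to 286 FPKM and from 161 to 85.1 FPKM, and no marker of either list was at 0. In Cd73N, where no member was called lower, 5 of 8 bipolar markers were lower and 3 of 7 cone markers were higher. The part of these cells in the lower calls was not tested.

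Apoe (chr7:20281593-20284515), the main lipid carrier protein of glia, had the largest log2 ratio between genotypes of any member in each fraction, although as FPKM folds the low genes Elovl6 and Stard4 differed more in Cd73P, by 2.51-fold and 1.98-fold. Its level was 356.8 FPKM in Cd73N WT, 1532 in Cd73N labelled Ezh2-cKO, 35.3 in Cd73P WT and 68.1 in Cd73P labelled Ezh2-cKO. The library labelled Ezh2-cKO was the higher one in each fraction, by 4.29-fold in Cd73N (log2 ratio 2.099, SE 0.017) and 1.93-fold in Cd73P (log2 ratio 0.93, SE 0.056). In every library the Apoe value lay above its deposited upper bound, which was 308, 1298, 32.2 and 61.4 FPKM in the same order. These SEs thus come from bounds that do not hold the value. In Cd73N labelled Ezh2-cKO, Apoe lay above 99.9% of expressed genes. Markers of Müller glia were higher with it. Of the 12 listed, 11 were higher in Cd73N with a median log2 ratio of 1.98, and 7 were higher in Cd73P with a median of 0.63. The shares higher over all genes and over expressed genes were 7.18% and 11.4% in Cd73N. In Cd73P they were 2.26% and 3.64%. The summed level of the list went from 892 to 3805 FPKM in Cd73N, a 4.27-fold difference, and from 110 to 199 FPKM in Cd73P, a 1.81-fold difference. Apoe divided by that sum was 0.4001 in Cd73N WT, 0.4026 in Cd73N labelled Ezh2-cKO, 0.321 in Cd73P WT and 0.342 in Cd73P labelled Ezh2-cKO. The ratio was therefore nearly even across the genotypes, differing by 1.006-fold in Cd73N and 1.067-fold in Cd73P. None of the 12 markers was at 0 in any library, and some of them, such as Rlbp1, Slc1a3 and Dbi, were also named by the study from these libraries, so the list is not independent evidence of its direction. Microglia, which also make ApoE, had 3 of 8 markers higher in Cd73N and 0 of 8 in Cd73P, with sums of 102 and 148 FPKM in Cd73N and 21.0 and 27.4 FPKM in Cd73P. Astrocytes, another source of ApoE, had 3 of 4 markers higher in Cd73N and 0 of 4 in Cd73P, with sums of 6.88 and 21.5 FPKM in Cd73N (3.13-fold) and 1.64 and 2.78 FPKM in Cd73P (1.70-fold). A higher sum in Cd73N was not limited to glia. Labelled Ezh2-cKO over WT, the sums there differed by 3.05-fold for endothelium, 2.80-fold for ganglion, 2.40-fold for amacrine and 1.51-fold for cone markers. For rod and pigment epithelium markers the ratio was 1.02, and for bipolar, horizontal, oligodendrocyte and blood markers 0.58, 0.68, 0.72 and 0.93. The part of these cell types in the Apoe difference was not tested.

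**Figure D3:**
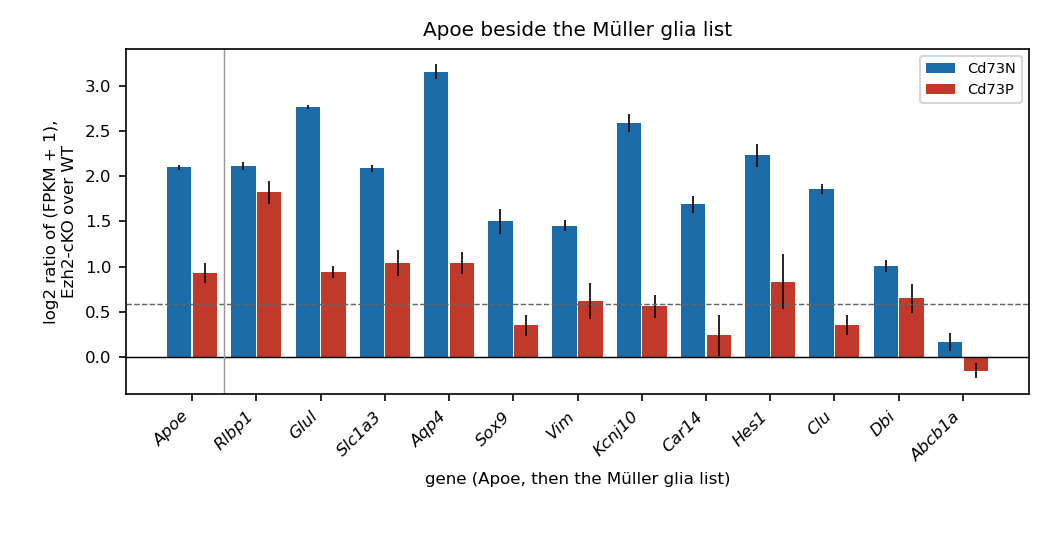
Log2 ratio of FPKM + 1, labelled Ezh2-cKO over WT, for Apoe and the 12 genes of the Müller glia list in Cd73N and Cd73P; bars start at 0, error bars are the 95% counting interval, the dashed line is 1.5-fold, and each bar compares 1 library with 1 library. The Cd73N bar of Apoe (2.099) is close to the median of the list (1.98).

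The LXR receptors and the sterol exporters did not follow Apoe. Nr1h2, which encodes LXR beta, was at 18.4, 18.2, 13.9 and 14.8 FPKM, while Nr1h3, which encodes LXR alpha, was between 0.342 and 2.32 FPKM. Nr1h2 was thus the more abundant receptor in every library, by a ratio of 7.95 in Cd73N WT and 26.2 in Cd73P WT. Abca1 (chr4:53043661-53172767), which loads cholesterol onto lipid-poor apolipoproteins, was below 10 FPKM, at 8.11, 8.56, 5.57 and 3.21. As an FPKM fold it was 1.74-fold lower in the Cd73P library labelled Ezh2-cKO (log2 ratio of FPKM + 1 -0.64, SE 0.045), and its log2 ratio in Cd73N was 0.07 (SE 0.037). Abcg1, which passes cholesterol to lipoprotein particles, was at 18.0, 15.4, 25.8 and 21.0 FPKM, with its higher levels in Cd73P. Stard4, a soluble sterol carrier, was at 3.93, 2.44, 2.50 and 1.26 FPKM, the lower of each pair being the library labelled Ezh2-cKO. Its log2 ratio was -0.52 (SE 0.093) in Cd73N and -0.63 (SE 0.0997) in Cd73P, and without the added 1 its FPKM was 1.61-fold and 1.98-fold lower.

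In fatty acid synthesis, 4 of 5 genes stayed within 1.5-fold between genotypes. Acaca, the acetyl-CoA carboxylase that starts the pathway, was below 10 FPKM, at 6.02, 5.92, 9.62 and 9.05. Fasn, the fatty acid synthase, was at 19.5, 17.9, 6.79 and 6.03 FPKM. These consecutive enzymes stood in opposite order in the fractions, with Acaca higher and Fasn lower in both Cd73P libraries. Elovl6 (chr3:129235304-129341411), which extends palmitate to stearate, was at 10.5, 9.20, 1.25 and 0.499 FPKM. Its Cd73P log2 ratio of -0.59 (SE 0.064) was at the threshold and the call was lost when libraries were scaled by the median ratio of expressed genes. Scd2, a stearoyl-CoA desaturase that adds the first double bond, was the most abundant member after Apoe in Cd73N, at 126, 167, 22.9 and 17.1 FPKM. Its log2 ratio was 0.41 (SE 0.014) in Cd73N and -0.40 (SE 0.036) in Cd73P, so the genotypes stood in opposite order in the fractions without passing 1.5-fold in either. Scd1, its paralogue, was between 0.383 and 2.63 FPKM, and Scd2 exceeded it by a ratio of 66.1 in Cd73N WT and 51.7 in Cd73P WT.

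Between the fractions, the share of members lower in Cd73P by at least 1.5-fold was near that over all expressed genes. Among the WT libraries 15 members (45.5%) were lower in Cd73P, against 27.9% of all genes and 45.1% of expressed genes. Srebf1 and Acaca were the 2 members higher in Cd73P WT, or 6.06% against 9.07% and 14.8%. Among the libraries labelled Ezh2-cKO 16 members (48.5%) were lower, against 29.1% and 45.5%, and 0 were higher, against 8.40% and 13.7%. The median log2 ratio was -0.49 in WT and -0.44 in the libraries labelled Ezh2-cKO, beside -0.46 and -0.47 over all expressed genes. Scaling the libraries by the median ratio of expressed genes added 0.34 and 0.27 to log2 ratios of FPKM without the added 1. Scaling to equal FPKM sums added 0.43 and 0.22 to them. Log2 ratios of FPKM + 1 moved by less, as the 1 was added after scaling. After the first of these scalings, 11 members (33.3%) were lower in WT, against 21.8% of all genes and 35.3% of expressed genes, and 5 (15.2%) were higher, against 14% and 22.5%. In the libraries labelled Ezh2-cKO 13 members (39.4%) were then lower, against 24.4% and 38%, and 3 (9.09%) higher, against 12.1% and 19.6%. Of the 33 genes, 23 had both Cd73N values above both Cd73P values and 5 had the reverse order. Over the expressed genes these shares were 61.0% and 24.1%.

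Apoe had the widest fraction difference of the members in both genotypes. It was 10.1-fold lower in Cd73P among WT and 22.5-fold lower among the libraries labelled Ezh2-cKO, as an FPKM fold. The Müller list as a sum was at 12.4% and 5.23% of its Cd73N level in Cd73P, and Apoe at 9.90% and 4.45%. Elovl6 was 8.37-fold and 18.4-fold lower, Scd2 5.49-fold and 9.77-fold, and Fasn 2.87-fold and 2.96-fold, while Acaca, of the same pathway, was 1.60-fold and 1.53-fold higher in Cd73P. Nr1h3, at low levels, was 4.37-fold and 5.82-fold lower. In the mevalonate arm Acat2 was lower by 3.10-fold and 3.24-fold. Srebf2 was 2.53-fold lower in Cd73P among WT and 5.72-fold among the libraries labelled Ezh2-cKO. Srebf1 stood in opposite order in the genotypes, with a log2 ratio of 0.62 (SE 0.041) in WT and -0.44 (SE 0.036) in the libraries labelled Ezh2-cKO. These comparisons share libraries with the genotype comparisons above and are not a separate measurement.

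**Figure D4:**
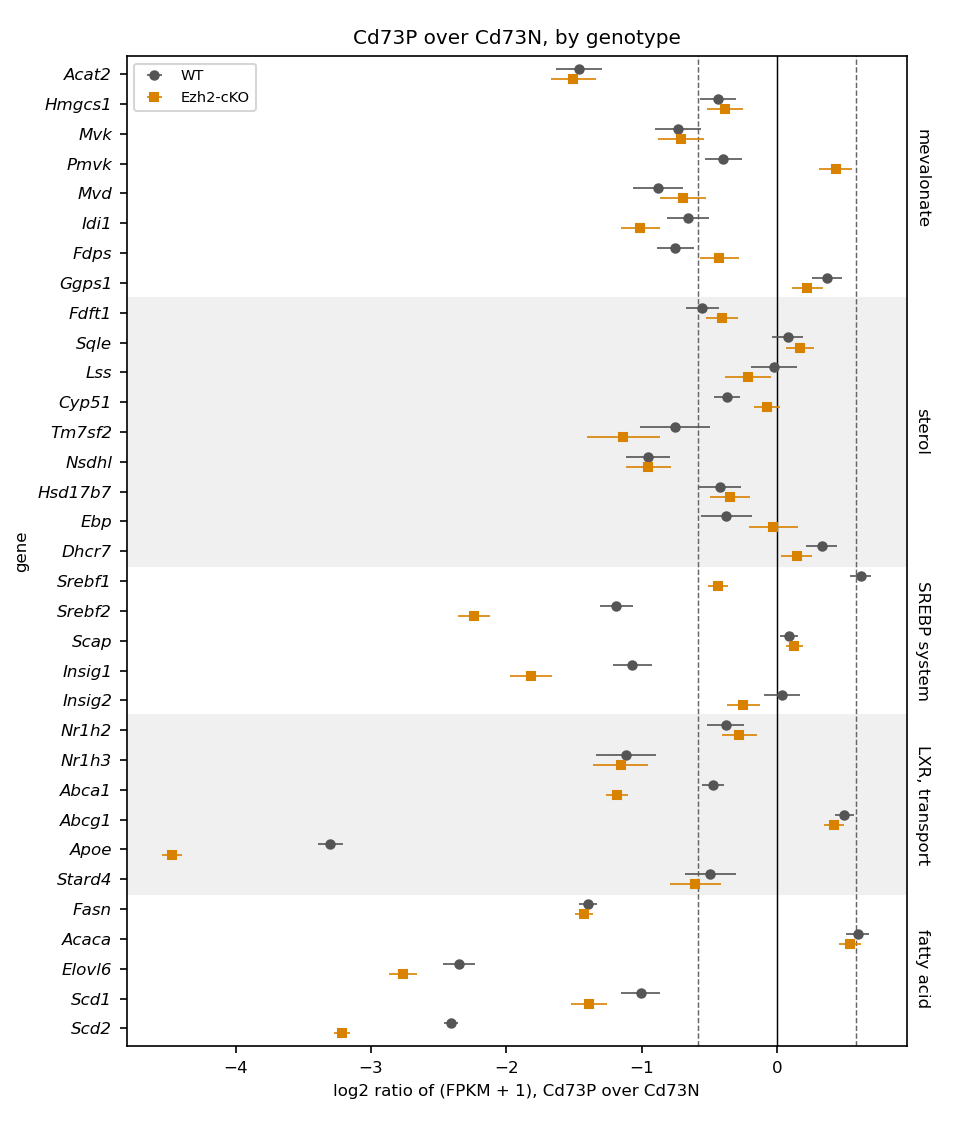
Log2 ratio of FPKM + 1, Cd73P over Cd73N, for each gene in WT (circles) and in the libraries labelled Ezh2-cKO (squares), with bars of the 95% counting interval and dashed lines at 1.5-fold; each point compares 1 library with 1 library. Most points lie left of 0, Apoe farthest, and Srebf1 lies at 0.62 in WT and at -0.44 in the libraries labelled Ezh2-cKO.

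A wider list of 65 other sterol and lipid genes gave 7 higher and 1 lower between genotypes in Cd73N. The counts in Cd73P were 2 higher and 3 lower. As shares of the list these are 10.8% and 1.54% in Cd73N and 3.08% and 4.62% in Cd73P, near the backgrounds given above for all and for expressed genes. In Cd73N, 5 genes of at least 10 FPKM were higher in the library labelled Ezh2-cKO. Sc4mol (now Msmo1), a sterol methyl oxidase, was at 7.54 and 13.2 FPKM (log2 ratio 0.73). Unlike the mevalonate and sterol enzymes among the members, it passed 1.5-fold in Cd73N. Clu, the glial apolipoprotein J that is also in the Müller list, was at 80.0 and 294 FPKM (log2 ratio 1.86). Acsl3, which activates long fatty acids, was at 87.9 and 321 FPKM (log2 ratio 1.86), and it shares exons with Utp14b. Elovl5, which extends polyunsaturated fatty acids, was at 23.6 and 51.0 FPKM (log2 ratio 1.08), and Lpcat3, which remodels phospholipids, was at 6.06 and 10.6 FPKM (log2 ratio 0.72). In Cd73P, 3 such genes were lower. Fabp7, a brain fatty acid binding protein, was at 99.8 and 20.5 FPKM (log2 ratio -2.23) and was also lower in Cd73N, at 77.5 and 48.3 FPKM (log2 ratio -0.67). Fads2, a desaturase, was at 18.8 and 11.5 FPKM (log2 ratio -0.66), and Elovl2, which extends very long polyunsaturated fatty acids, was at 76.0 and 49.2 FPKM (log2 ratio -0.62). Lcat and Apod, which were also called between genotypes, were below 10 FPKM.

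Some members share sequence with copies elsewhere in the genome, so their levels are less certain. Of 32 members with a GENCODE transcript, 19 had no 36-base word, the read length, at any other place in mm9. The share of words found elsewhere was 85.4% for Idi1, 76.7% for Fdps, 70.4% for Acaca, 42.6% for Acat2, 42.5% for Insig1, 28.1% for Ggps1, 28.1% for Fdft1 and 12.3% for Elovl6. Of the members called between genotypes, Insig1 and Elovl6 are in that group, while Apoe, Srebf1, Srebf2, Pmvk, Abca1 and Stard4 had no word elsewhere. Acat2 shares with its neighbour Acat3, and Scd1 and Scd2 share 5.08% and 4.12% of their words with Scd3. Exons of 8 members, Srebf1 among them, overlap those of another gene. Fdft1 overlaps Ctsb on the other strand, and Ctsb was at 72.9, 78.9, 52.0 and 45.1 FPKM in the order used above. Scap shares 14.8% of its words with 5830462I19Rik, which overlaps it on the other strand. Hmgcs1 was placed on an unassigned sequence of chromosome 13 in mm9 and listed in 2 rows, which were summed.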

How the data were processed

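RNA was measured in 4 libraries of sorted P12 mouse retina cells, 1 per fraction and genotype. Per the submitters' processing notes and the methods of the study, reads of 36 bases were demultiplexed with bcl2fastq 1.8.4 and aligned to mm9 with TopHat2 2.0.8b, allowing up to 50 hits. The deposited FPKM values and their confidence bounds were made by the authors with Cufflinks 2.1.1. The library kit does not mark strand, so overlapping genes on opposite strands cannot be told apart. No read counts were used.

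From these values, rows of 1 symbol were summed, 731 small RNA symbols were left out, and log2 ratios of FPKM + 1 were taken for 4 comparisons with a 1.5-fold threshold. The SE was the width of the bounds divided by 4, relative to their midpoint. The FPKM lay above the upper bound for 5 members in Cd73N WT and 8 in Cd73N labelled Ezh2-cKO. In Cd73P this held for 3 members in WT and 5 in the library labelled Ezh2-cKO. Apoe and Fdps were among them in every library. The calculation was tested on simulated data. Every member was named, with its value in each library where it reached 10 FPKM in 1 library and otherwise by its range or, where called, its values; of the other lipid genes those past the threshold at 10 FPKM or more were named. Some further genes are not reported here. Members, lists and tests were chosen with earlier results of these data known. The alternatives were pseudocounts of 0.1 and 5, scaling by the median ratio or the FPKM sum, a 2-fold threshold, a minimum of 10 FPKM, no pseudocount, and leaving out values outside their bounds. The midpoint of the bounds in place of FPKM was chosen after seeing the data. Python 3.11.15, pandas 2.3.3 and numpy 2.4.6 were used.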

Additional observations from a re-analysis of the deposited data

Results flagged for a closer look

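In 4 members the genotypes stood in opposite order in the fractions by more than counting error. The log2 ratio of labelled Ezh2-cKO over WT in Cd73P minus that in Cd73N was -1.05 for Srebf1, -1.05 for Srebf2, -0.81 for Scd2 and -0.75 for Insig1. Insig1 passed only narrowly in Cd73N, with a log2 ratio of 0.111 (SE 0.0555). Its level of 16.91 FPKM in Cd73N labelled Ezh2-cKO also lay above the deposited upper bound of 16.80. Of its 36-base words, 42.5% occur elsewhere in the genome. Each value rests on 1 library per fraction and genotype, and the difference between the fractions was not tested.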

How the results depend on the processing

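No paired analysis was possible because there was 1 library per group. For the same reason no library could be left out, and counting error is the only error available. In Cd73N, a 2-fold threshold left 1 member higher, and a pseudocount of 0.1 or none gave 1 lower (Stard4), while scaling to equal FPKM sums moved the median log2 ratio to 0.12. In Cd73P, a 2-fold threshold left 0 higher and 0 lower, a pseudocount of 5 and a minimum of 10 FPKM each left 0 lower, and leaving out values outside their bounds left 1 higher of 28 members. That last setting left out Apoe itself in both fractions, so it is no check on Apoe. For Cd73P over Cd73N in WT, the members higher numbered 0 with a pseudocount of 5 or a 2-fold threshold, 1 with a minimum of 10 FPKM and 5 with either scaling. The members lower numbered 9 with a pseudocount of 5, with scaling to equal sums and with a 2-fold threshold. The median was -0.34 with a pseudocount of 5, -0.25 with median scaling and -0.17 with sum scaling. For the libraries labelled Ezh2-cKO, the members higher numbered 1 with a pseudocount of 0.1 or none and 3 with either scaling, those lower numbered 9 with a minimum of 10 FPKM, and the median was -0.17 with median scaling and -0.23 with sum scaling. The cause of these moves was not tested. Low members lose most with a larger pseudocount, and the direction of differences under about 0.15 in Cd73N depends on the scaling.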
